A study of Saccharomyces cerevisiae with 20 samples.

Results

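The mitochondrial ribosome translates the few respiratory-chain subunits that yeast mitochondria still encode themselves. The proteins of its large subunit are made in the cytosol from nuclear genes, and these genes are dispersed over the chromosomes. The 40 nuclear genes described here were taken by name, as the MRPL genes together with MRP7, MRP20, MRP49, IMG1, IMG2 and RML2, out of 5985 nuclear protein-coding genes with values. The rule for membership uses names and no measured value. All 40 were present in the files, and each systematic name carried the symbol listed for it in RefSeq. Of the 40 proteins, 25 belong to families shared with bacterial ribosomes and 15 are specific to mitochondria. The genes were short, from 213 to 1182 bp with a median of 616.5 bp, against a median of 1203 bp for all genes, and 36 of the 40 were under 1 kb.

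Chromatin immunoprecipitation with hybridisation to tiling arrays (ChIP-chip) followed 4 proteins or marks through stress adaptation and recovery. Gcn5 is a histone acetyltransferase that works within SAGA, a coactivator of transcription. H3K18ac and H4K16ac are acetylated lysines of histones H3 and H4, and total H3 was measured for histone density. The methods give 1 catalogue number for both the H3K18ac and the H3 antibody, and the labels give it for H3K18ac alone, so which antibody served for H3 is not settled. The cells were a *Saccharomyces cerevisiae* strain, BQS1350, with myc-tagged Gcn5, which all samples share, so that Gcn5 was precipitated through its tag. Sample A was in log-phase growth in YPD (rich glucose medium), sample B was taken 1 hour after dilution into YPD with 1 M KCl, sample C after adaptation to the same KCl, sample D 1 hour after return to YPD without KCl, and sample E after recovery over several generations. There were 20 sets of values, 1 for each antibody and sample.

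Each gene was divided into 38 bins, 9 over the near part of the 5′ intergenic region (5′ IGR, where the promoter lies), 20 over the open reading frame (ORF) and 9 over the near part of the 3′ intergenic region (3′ IGR). Values are ChIP signals against input on a log scale whose base is not given in the sources used here, so differences are in these units and are not turned into folds. The study describes 2 cultures, but the values do not keep them apart. There is therefore no replicate error, and no test between samples was possible. As a yardstick, a difference was called when it was larger in size than the 95th percentile of the size of E minus A over all genes for that antibody and region, both samples being without KCl. This size is not a replicate error, and the words rose and fell are used for called differences only. The comparisons share samples, and comparisons with A and with C are not independent of each other.

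In normal growth the clearest feature of the 40 genes was high acetylation averaged over the ORF. The median ORF level of H3K18ac in sample A was 0.59 for the 40 genes and 0.21 for all genes, and all 40 lay above the median of all genes. For H4K16ac the medians were 0.47 and 0.12, with 36 of the 40 above. H3K18ac was lower in longer ORFs, and Spearman's rho of length against ORF H3K18ac was -0.57 across the 40 genes and -0.62 across all genes. Against genes under 1 kb, whose medians were 0.53 for H3K18ac and 0.29 for H4K16ac, 25 of the 40 lay above for H3K18ac and 29 for H4K16ac. Much of the distance in H3K18ac was thus shared with other short genes, whereas the distance in H4K16ac remained 0.20 when genes and members under 1 kb were compared. These levels average all ORF bins. The study limited Gcn5 to the central 40% of ORFs to keep out signal from flanking regions. This was not done for these levels, and the part of such signal was not tested. Counted from 0, bin 18 lies near the ORF middle and bin 28 is its last. Median H4K16ac of the 40 genes in sample A was 0.30 in bin 18, 0.41 in bin 22 and 0.72 in bin 28. Genes under 1 kb had 0.20, 0.19 and 0.40. ORF levels of H3 (0.16) and Gcn5 (-0.06) were close to those of genes under 1 kb, 0.17 and -0.03.

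**Figure D1:**
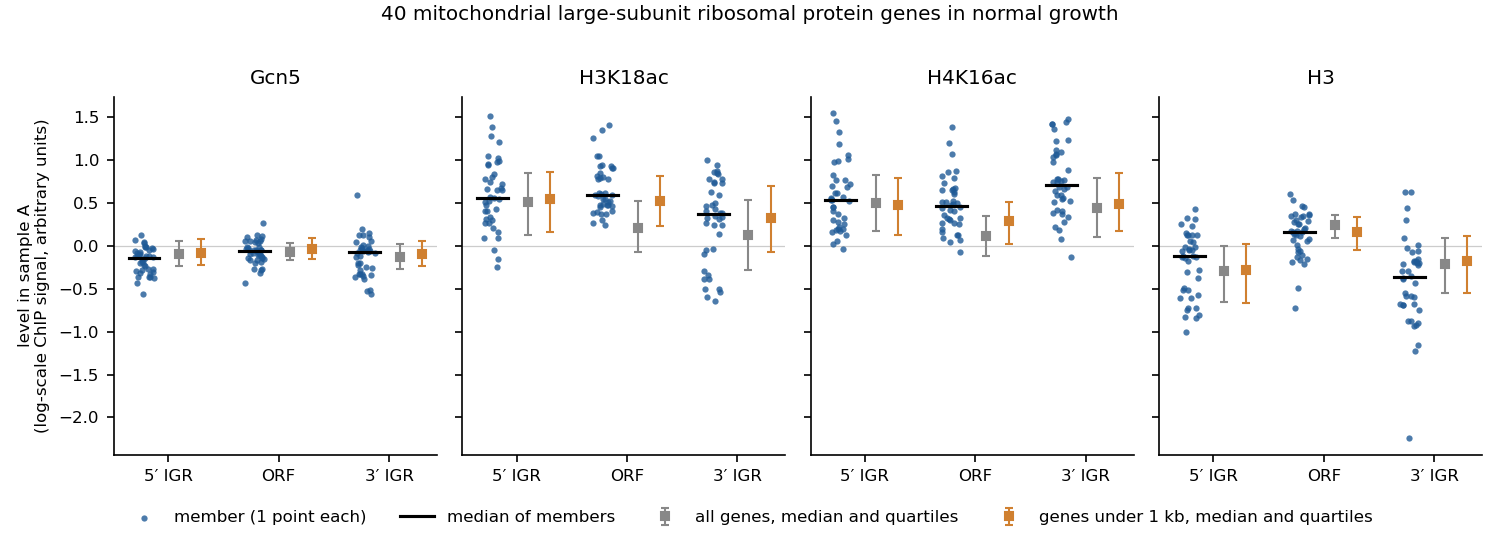
Level of each antibody in sample A over the 5′ IGR, ORF and 3′ IGR, in log-scale ChIP signal (arbitrary units). Each blue point is 1 of the 40 genes and the black line is their median, beside the median and quartiles of all genes (grey) and of genes under 1 kb (orange); the ORF points of H3K18ac and H4K16ac sit highest against the grey squares, and the lowest 3′ IGR value of H3 is that of RML2 at -2.24.

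The 40 genes differed widely among themselves in these marks. ORF H3K18ac in sample A was highest in MRPL44 (YMR225C, mL53, a mitochondria-specific protein) at 1.41, IMG1 (YCR046C, bL19) at 1.35 and MRPL23 (YOR150W, uL13) at 1.25. It was lowest in MRPL40 (YPL173W, uL24, at the exit of the peptide tunnel) at 0.24, MRPL35 (YDR322W, mL38) at 0.27 and MRP20 (YDR405W, uL23, also at the tunnel exit) at 0.30. The 3 lowest genes were thus longer than the 3 highest, in the same sense as the relation with length above. ORF H4K16ac was highest in MRPL49 (YJL096W, bL21) at 1.39, MRPL44 at 1.2 and MRPL32 (YCR003W, bL32) at 1.07, levels exceeded by few genes of the genome, since 99.5% of genes were lower than MRPL49. It was lowest in MRP20 at -0.07, MRPL35 at 0.05 and MRPL19 (YNL185C, uL11, at the base of the stalk that receives translation factors) at 0.06. MRPL35 and MRP20 were therefore among the lowest for both marks and MRPL44 among the highest for both, and across the 40 genes the marks had a Spearman's rho of 0.71, against 0.64 across all genes. The points of such a correlation share arrays and probe composition, and it is given as a description.

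Histone density did not run parallel to acetylation. ORF H3 in sample A was lowest in MRPL44 at -0.72, MRPL49 at -0.49 and MRPL24 (YMR193W, bL28) at -0.21, and highest in MRPL19 at 0.60, IMG1 at 0.54 and MRPL4 (YLR439W, uL29, at the tunnel exit) at 0.46. MRPL44 and MRPL49 thus joined the highest H4K16ac of the 40 to the lowest H3, and rho of ORF H3 against ORF H4K16ac was -0.51 across the 40 genes and -0.33 across all genes. Against ORF H3K18ac, rho of ORF H3 was only -0.07 across the 40 genes and -0.11 across all genes. IMG1 combined high H3 with high H3K18ac and with the highest ORF Gcn5 of the 40, 0.26, ahead of MRPL32 and MRPL24, both at 0.12. Gcn5 was lowest in the ORFs of MRPL31 (YKL138C, mL60) at -0.43, MRPL39 (YML009C, bL33) at -0.31 and IMG2 (YCR071C, mL49) at -0.28. MRPL44 was the only one of the 40 with bins lying exactly midway between their neighbours, as interpolated bins do.

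Along the gene, the median H3K18ac of the 40 peaked around the start codon. It reached 0.89 in the second ORF bin in sample A, where all genes had a median of 0.51 and genes under 1 kb a median of 0.63. Further into the ORF (bin 22, counted from 0 over the 38 bins) all genes had a median of 0.08, the 40 genes 0.55 and genes under 1 kb 0.45. H4K16ac had its peak behind the stop codon, 0.89 in the fourth bin of the 3′ IGR against 0.54 for all genes. H3 was at its lowest in that bin, with a median of -0.63 for the 40 genes and -0.25 for all genes. All genes had their lowest H3 upstream of the start codon instead, at -0.48, where the 40 genes had -0.35.

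**Figure D2:**
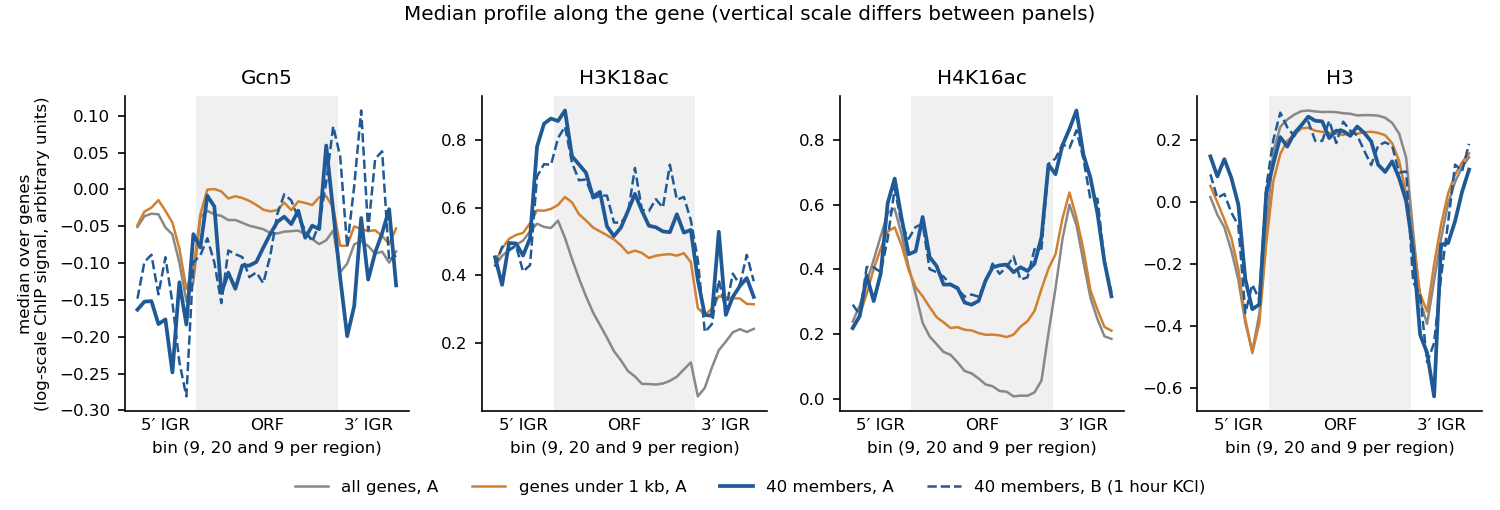
Median profile over the 38 bins for each antibody, in log-scale ChIP signal (vertical scales differ between panels), with the ORF shaded. Solid blue is the 40 genes in sample A, dashed blue the same genes in sample B, grey all genes and orange genes under 1 kb in sample A; the blue H3 curve dips to -0.63 behind the stop codon, and the dashed Gcn5 curve peaks at 0.11 there.

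At the 5′ IGR the 40 genes resembled the genome in acetylation. The median levels in sample A were 0.56 for H3K18ac and 0.54 for H4K16ac, against 0.52 and 0.50 for all genes. H3 was higher, -0.12 against -0.30, with 25 of the 40 above the median of all genes, and Gcn5 was -0.14 against -0.10, with 14 of the 40 above. In the bin next to the start codon (bin 8) acetylation was higher than in the genome. The medians there were 0.86 for H3K18ac and 0.45 for H4K16ac, against 0.54 and 0.41 for all genes. Genes under 1 kb had 0.60 and 0.40 in that bin. H3K18ac was highest upstream of MRPL8 (YJL063C, bL17) at 1.52, MRPL31 at 1.39 and MRPL7 (YDR237W, uL5, in the central protuberance) at 1.28. These 3 share their 5′ IGR with a divergent gene, COA3, CMC1 and FMN1 respectively, and the arrays do not separate the promoters in such a region. The 22 genes with a divergent neighbour had a median of 0.80 and the 18 with a tandem neighbour 0.42, against 0.61 and 0.41 for all genes of these layouts. The lowest values were -0.25 upstream of MRPL22 (YNL177C, uL22, lining the peptide tunnel), -0.16 upstream of MRPL19 and -0.05 upstream of MRPL16 (YBL038W, uL16, near the peptidyl transferase centre). MRPL19 and MRPL51 (YPR100W, mL43) overlap an upstream gene in RefSeq, YNL184C and YPR099C, so that their 5′ IGR values are not those of a free promoter.

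The remaining extremes of the 5′ IGR concerned other genes. H4K16ac was highest upstream of MRPL1 (YDR116C, uL1, of the stalk on the tRNA exit side) at 1.55, MRPL8 at 1.46 and MRPL17 (YNL252C, mL46) at 1.33, and lowest upstream of MRPL15 (YLR312W-A, mL57) at -0.04, MRPL10 (YNL284C, uL15) at 0.03 and MRPL40 at 0.06. H3 was highest upstream of MRP49 (YKL167C, mL61) at 0.43, MRPL37 (YBR268W, mL54) at 0.33 and MRPL6 (YHR147C, uL6, near the factor-binding site) at 0.31, and lowest upstream of MRPL19 at -1.0, MRPL27 (YBR282W, mL41) at -0.84 and RML2 (YEL050C, uL2, beside the peptidyl transferase centre) at -0.83. Gcn5 was highest upstream of MRPL17 at 0.13, RML2 at 0.07 and MRPL32 at 0.04 and lowest upstream of MRPL22 at -0.56, MRPL23 at -0.43 and MRPL33 (YMR286W, uL30) at -0.37. The gap upstream of RML2, 2876 bp long, holds small nucleolar RNA and tRNA genes in its near part. Over all genes, such gaps had a median H3 of -0.60 and Gcn5 of 0.02, against -0.29 and -0.10 for the others. The part of these RNA genes in the RML2 values was not tested. MRPL8 was thus high for both acetyl marks, whereas MRPL1 was high for H4K16ac with an H3K18ac of 0.56, the median of the 40.

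Behind the stop codon the 40 genes had more H4K16ac and less H3 than the genome, 0.72 against 0.44 and -0.36 against -0.21. In H4K16ac 30 of the 40 lay above the median of all genes, and in H3 16 did. H3K18ac had a median of 0.37 there against 0.13 for all genes and 0.32 for genes under 1 kb, from -0.64 behind MRPL9 (YGR220C, uL3) to 1.00 behind MRPL44. The low H3 was found mainly where 2 genes end towards each other. The 22 genes with a convergent neighbour had a median H3 of -0.57, against -0.11 for all convergent genes, and the 18 with a tandem neighbour had -0.22, against -0.32. The convergent gaps of the 40 were longer, 313 bp in the median against 226 bp for all convergent genes. Among the 2551 convergent genes with gaps of 91 to 941 bp, the range of these 22, the median H3 was -0.13, and 17 of the 22 lay below it. The contribution of gap length was not tested further.

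RML2 marked the end of this range. H3 behind its stop codon was -2.24, -1.84, -1.97, -1.94 and -2.04 in samples A to E, and only 0.067% of genes had a lower level in sample A. The value was thus low in all 5 samples, with and without KCl. MRPL19 (-1.23) and MRPL10 (-1.15) followed in sample A, and MRPL49 (0.63), MRPL4 (0.63) and IMG2 (0.45) were at the other end. The gap behind MRPL10 holds a tRNA gene in its near part. RML2 and MRPL19 have no RNA gene there. H4K16ac behind the stop codon was highest in MRPL25 (YGR076C, mL59) at 1.48, MRPL23 at 1.44 and RML2 at 1.42, and lowest in MRPL4 at -0.13, MRP20 at 0.08 and MRPL7 at 0.19, and its rho with H3 was -0.52 across the 40 genes and -0.31 across all genes.

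From sample A to sample B the 40 genes moved little as a group in the ORF and the 5′ IGR. The median difference at the 5′ IGR was 0.039 for Gcn5, 0.0066 for H3, -0.060 for H3K18ac and -0.013 for H4K16ac, against 0.046, 0.044, -0.051 and -0.022 for all genes. The ORF medians of Gcn5, H3, H3K18ac and H4K16ac were 0.0071, 0.0079, 0.0036 and 0.017. The H3K18ac change at the 5′ IGR was larger than the SD of the members' median over the other 4 samples, 0.027, and had the sign and size seen over all genes. It was -0.026, within the SD, with sample E in place of A and -0.00086 in the 18 genes without a divergent neighbour. The Gcn5 median at the 5′ IGR passed its SD of 0.013 as well, but turned to -0.0027 once H3 was subtracted and to -0.013 in the 3 bins nearest the start codon. In the ORF the Gcn5, H3K18ac and H3 medians lay within their SDs and were negative with the values as deposited, -0.023, -0.0055 and -0.0095. The ORF median of H4K16ac was -0.014 with sample E in place of A.

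**Figure D3:**
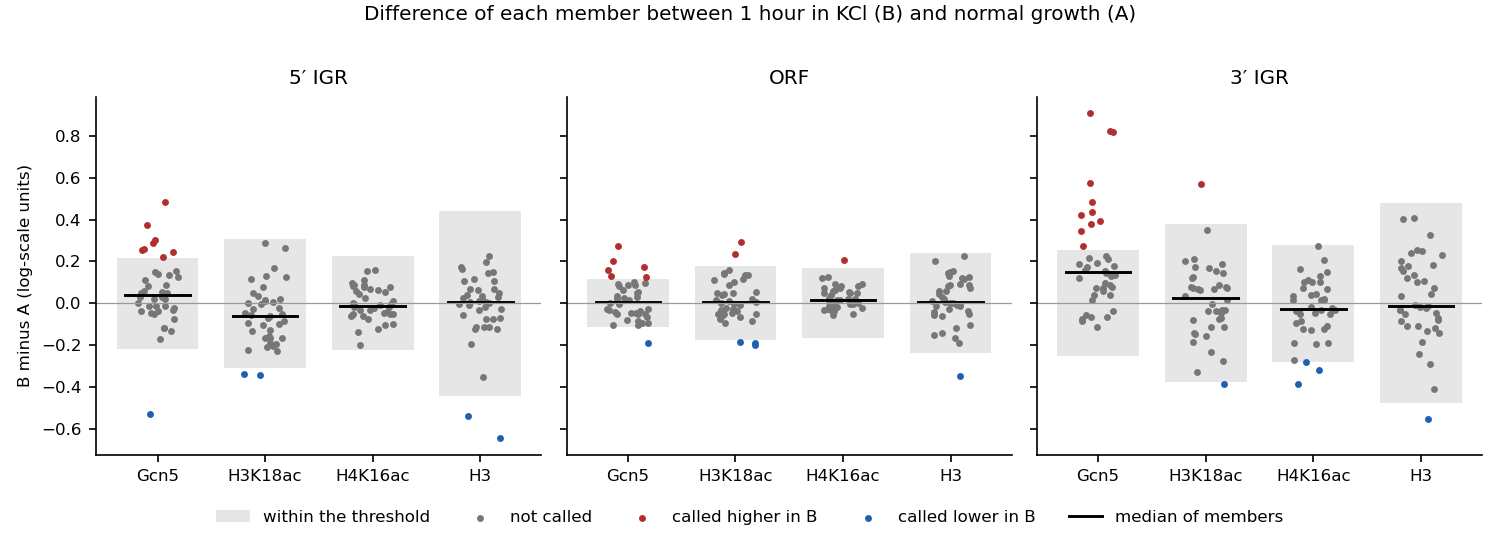
Difference of each of the 40 genes between sample B and sample A for the 4 antibodies in the 5′ IGR, ORF and 3′ IGR, in log-scale units. The grey band is the threshold for a call, red points were called higher and blue points lower in B, and black lines are medians; 11 red points stand above the band for Gcn5 in the 3′ IGR and 8 in the 5′ IGR, and H4K16ac in the 5′ IGR is the only column with no point outside it.

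Counted over the 3 regions together, 23 of the 40 genes were called for Gcn5 between A and B (57.5%), where 50.6% of all genes were. Between A and E, both without KCl, Gcn5 was called in 25% of the 40 and in 14% of all genes. For the acetyl marks the share called between A and B was below that of the genome. H3K18ac was called in 7 (all genes 35.6%) and H4K16ac in 4 (all genes 22.5%). H3 was called in 3 (all genes 13.2%), but with sample E in place of A in 9, where 14.4% of all genes were. In all, 44 of 480 combinations of gene, antibody and region were called (9.17%, all genes 13.1%), and 11 of the 40 genes had no call between A and B for any antibody (27.5%, all genes 28.6%). Spearman's rho of ORF levels in sample B with those in sample A across the 40 genes was 0.98 for H4K16ac, 0.90 for H3, 0.88 for H3K18ac and 0.74 for Gcn5, against 0.96, 0.88, 0.94 and 0.76 across all genes. Behind the stop codon it was 0.40 for Gcn5, against 0.72 across all genes.

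Of the members' medians for the 12 combinations of antibody and region, that of Gcn5 behind the stop codon differed most between A and B, and the median of all genes moved the same way. The median of the 40 went from -0.08 in sample A to 0.07 in sample B and was -0.08, -0.09 and -0.13 in samples C, D and E. That of all genes went from -0.13 in A to -0.02 in B. The median difference was 0.15 for the 40 and 0.11 for all genes, and with H3 subtracted 0.12 and 0.095. Of the 40 genes, 33 were higher in B than in A (82.5%, all genes 75.4%) and 26 had their highest level of the 5 samples in B, against 56.8% of all genes. Gcn5 rose past the threshold in 11 of the 40 (all genes 20.4%) and fell in none (all genes 2.84%). The 11 comprised 8 of the 22 genes with a convergent neighbour, where 24.7% of all such genes were called up, and 3 of the 18 with a tandem one, where 15.9% were. The 11 are 27.5% of the 40, on 1 array per sample. With sample E in place of A the rise was called in 17 of the 40 (42.5%) and in 23.4% of all genes.

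The 3 largest of these rises were behind RML2 (uL2), MRPL10 (uL15) and MRPL9 (uL3). Gcn5 behind RML2 was -0.39 in sample A, 0.52 in B, -0.10 in C, -0.29 in D and -0.13 in E. Behind MRPL10 it was -0.20, 0.63, 0.04, -0.08 and -0.0015, and behind MRPL9 -0.56, 0.26, -0.23, -0.55 and -0.30. In all of them sample B lay above the other 4 samples, which their choice by B minus A favours. The rises between A and B were 0.91, 0.82 and 0.82. H3 behind MRPL10 and MRPL9 did not pass its threshold in any comparison, nor did it behind RML2, whose H3 is given above. The gene next behind RML2 is VMA8 and behind MRPL9 CRM1, both convergent, so that these regions are also the 3′ ends of those genes. The gap behind MRPL10 holds a tRNA gene in its near part. Over all genes with an RNA gene there, the median Gcn5 difference was 0.14, against 0.11 for the others. The part of the tRNA gene in the MRPL10 rise was not tested.

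The other 8 rises were smaller. Gcn5 rose by 0.58 behind MRPL39, by 0.49 behind MRPL40, by 0.44 behind MRPL19 and by 0.42 behind MRPL23, and by 0.39 behind MRPL33, 0.38 behind MRPL3 (YMR024W, mL44, at the tunnel exit), 0.35 behind MRPL25 and 0.27 behind MRPL38 (YKL170W, uL14). All 11 genes had their highest level in sample B. Since they were called for B above A, this is in part given by the choice. The highest Gcn5 behind a stop codon in sample A belonged to MRP20, whose levels were 0.59, 0.67, 0.74, 0.59 and 0.56 in samples A to E. MRP20 was therefore high throughout, and its Gcn5 was not called in any comparison. It was followed in sample A by MRPL11 (YDL202W, uL10, which anchors the stalk) at 0.20 and MRP7 (YNL005C, bL27) at 0.15. The deposited Gcn5 values of sample A hold 13 exact zeros among the bins of the 40 genes and those of sample B none, and their part in the rises was not tested.

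**Figure D4:**
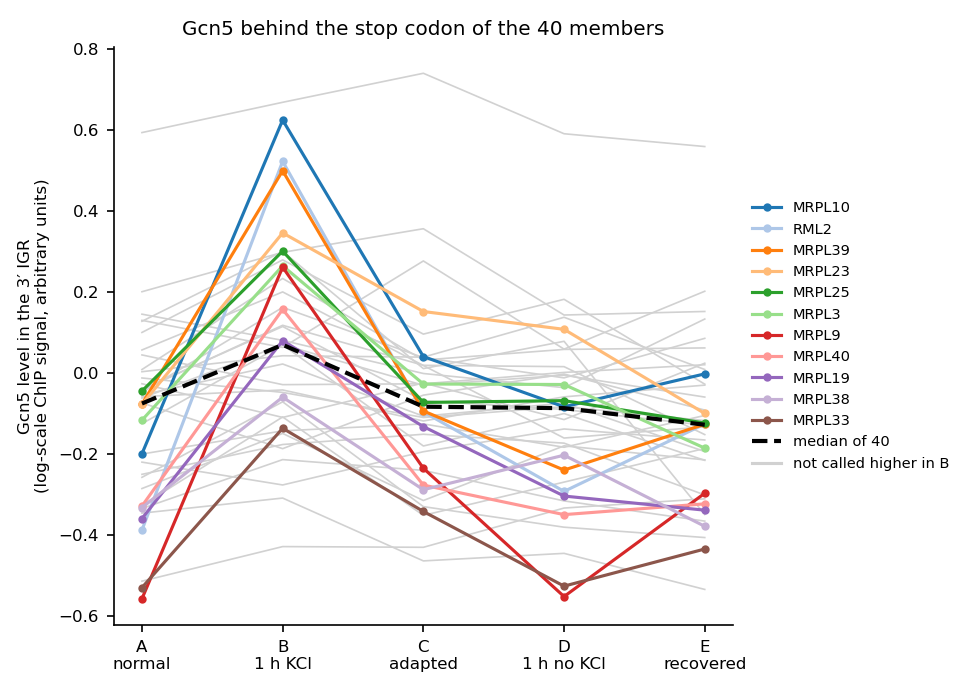
Gcn5 level in the 3′ IGR of each of the 40 genes in samples A to E, in log-scale ChIP signal, 1 value per sample. Coloured lines are the 11 genes called higher in B than in A, grey lines the other 29 and the dashed line the median. All coloured lines peak in B, which their choice for B above A favours, from MRPL10 at 0.63 down to MRPL33 at -0.14. MRP20 is the top grey line.

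At the 5′ IGR, Gcn5 rose between A and B in 8 of the 40 genes (all genes 14.7%) and fell in 1 (all genes 6.67%). The 3 largest rises were 0.48 upstream of MRPL19, 0.37 upstream of MRPL1 and 0.30 upstream of MRPL17. The others were upstream of MRPL25, MRPL27, MRPL16, MRPL51 and MRPL22, from 0.22 to 0.29. Those of MRPL19 and MRPL51 are not values of a free promoter, since both genes overlap an upstream gene. The single fall was upstream of MRPL35. H3K18ac rose in 0 (all genes 7.35%) and fell in 2 (all genes 10.8%), by 0.34 upstream of MRPL20 (YKR085C, mL58) and by 0.34 upstream of MRPL35. H4K16ac rose in 0 (all genes 3.64%) and fell in 0 (all genes 7%). H3 rose in 0 (all genes 2.64%) and fell in 2 (all genes 2.17%), MRPL17 and MRPL35.

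MRPL35 was the gene with the most antibodies called in 1 region. Its 5′ IGR had Gcn5 levels of -0.04, -0.57, -0.49, -0.46 and -0.14 in samples A to E and H3 levels of -0.51, -1.05, -1.38, -1.64 and -0.97. H3K18ac there was 0.30, -0.04, 0.11, -0.19 and 0.07, and H4K16ac 0.69, 0.76, 0.97, 0.88 and 0.82. Gcn5, H3 and H3K18ac thus fell after 1 hour in KCl. In the adapted cells Gcn5 and H3 were still called lower than in A and H4K16ac was called higher, and in sample E H3 was still called lower. Upstream of MRPL17, which encodes another mitochondria-specific protein, Gcn5 went from 0.13 to 0.43 and H3 from -0.11 to -0.76 between A and B, and H3 was -0.30, -0.51 and 0.16 in samples C to E. A fall of H3 thus went with opposite directions of Gcn5 in these genes. The threshold at the 5′ IGR was 0.44 for H3 and 0.22 for Gcn5.

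**Figure D5:**
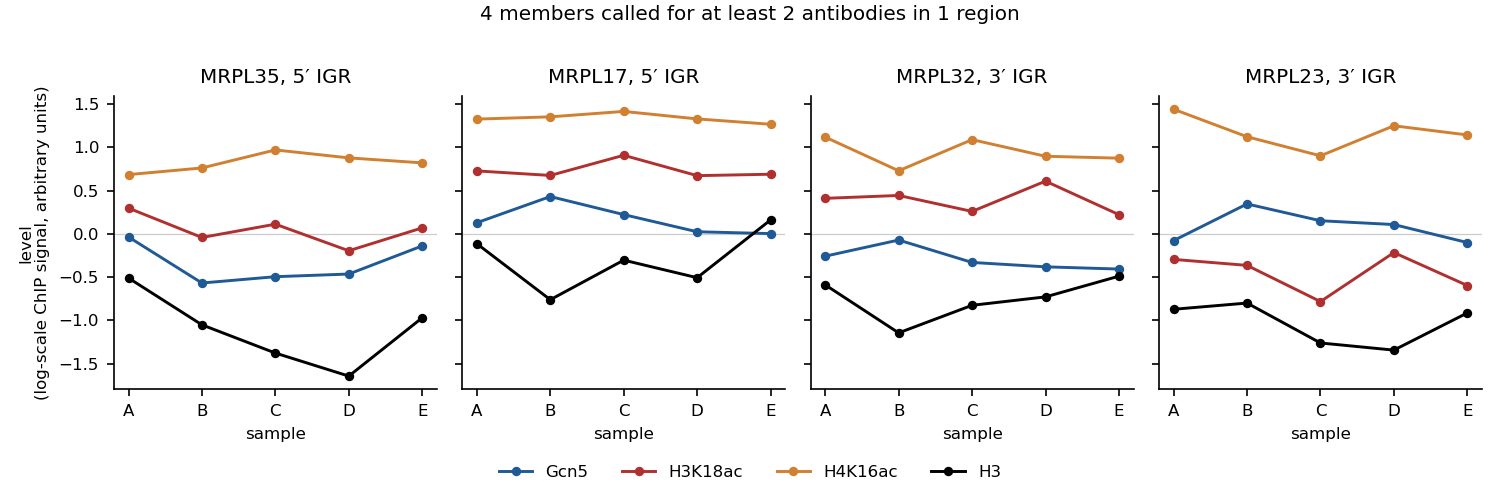
Levels of the 4 antibodies in samples A to E at the 5′ IGR of MRPL35 and MRPL17 and the 3′ IGR of MRPL32 and MRPL23, in log-scale ChIP signal, 1 value per sample. Each line is 1 antibody; H3 (black) of MRPL35 declines from -0.51 in A to -1.64 in D, whereas that of MRPL17 and MRPL32 is lowest in B.

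In the ORF, Gcn5 rose between A and B in 6 of the 40 genes (all genes 12.4%) and fell in 1 (all genes 8.91%). H3K18ac rose in 2 (all genes 11.8%) and fell in 3 (all genes 7.52%), H4K16ac rose in 1 (all genes 7.05%) and fell in 0 (all genes 3.53%), and H3 rose in 0 (all genes 2.44%) and fell in 1 (all genes 2.74%). Short genes were called more often than the genome as a whole. Of genes under 1 kb, 30.4% were called for Gcn5 in either direction, 9.56% for H3, 28% for H3K18ac and 13.3% for H4K16ac, and the 40 genes, with 7, 1, 5 and 1 called, lay below each of these shares. The largest Gcn5 rises were 0.27 in MRPL49, 0.20 in MRPL22 and 0.17 in MRPL31, and the fall was -0.19 in MRPL8. H3K18ac rose by 0.29 in MRP20, from 0.30 to 0.59, and by 0.24 in MRP49, which was also called for Gcn5. It changed by -0.20 in MRPL33, -0.19 in MRPL24 and -0.18 in MRPL11. The H4K16ac rise was in IMG1, from 0.66 to 0.87, and it was called in C and E against A as well.

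MRPL32, whose product is matured by the m-AAA protease of the inner membrane before it joins the ribosome, had less H3 in and behind its ORF after 1 hour in KCl. ORF H3 was -0.04, -0.39, -0.23, -0.38 and 0.03 in samples A to E, and ORF Gcn5 0.12, 0.25, 0.11, 0.11 and -0.01. Behind the stop codon H3 went from -0.59 to -1.14 and H4K16ac from 1.12 to 0.73 in sample B. Both were nearer to their level of sample A in samples C, D and E. MRPL32 had 4 calls between A and B, the most of the 40 genes.

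Behind the stop codon the other antibodies were called rarely between A and B. H3K18ac rose in 1 of the 40 (all genes 5.58%), MRP20, from 0.31 to 0.88, and fell in 1 (all genes 4.91%), MRPL11, from 0.60 to 0.21. H4K16ac rose in 0 (all genes 2.52%) and fell in 3 (all genes 4.78%), which were MRPL32, MRPL23 and MRPL13 (YKR006C, mL50). H3 rose in 0 (all genes 1.9%) and fell in 1 (all genes 2.72%), MRPL32. MRP20 therefore gained H3K18ac both in its ORF and behind it, with no call for Gcn5 in either region. Behind MRPL23 H4K16ac was 1.44, 1.12, 0.90, 1.25 and 1.14 in samples A to E and H3K18ac -0.29, -0.36, -0.78, -0.22 and -0.60. Both marks were called lower in C than in A and higher in D than in C, so that they were lowest in the cells adapted to KCl. MRPL23 had 10 calls over all antibodies, regions and comparisons, the most of the 40.

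In adapted cells (C against A) 11 of the 40 genes were called for Gcn5 in at least 1 region (all genes 20.3%), 2 for H3K18ac (all genes 23%), 4 for H4K16ac (all genes 19.2%) and 2 for H3 (all genes 10.5%). Gcn5 behind MRPL9 and RML2 was still 0.32 and 0.29 above sample A. In the ORF Gcn5 rose by 0.28 in MRPL44, by 0.20 in MRPL49 and by 0.14 in MRPL23 and fell by 0.12 in MRPL10 and by 0.12 in MRPL1, and at the 5′ IGR it rose upstream of MRPL27 and MRPL25 and fell upstream of MRPL35 and MRPL32. H3K18ac rose by 0.39 upstream of MRPL16, whose levels were -0.05, 0.02, 0.34, 0.21 and 0.40 in samples A to E, so that it was higher in C and E than in A and B, with D between them. H4K16ac rose behind MRP20 by 0.41 and H3 fell behind MRPL39 by 0.51. These calls concerned single genes, and the median differences from A to C lay between -0.026 and 0.036 over the 4 antibodies and 3 regions.

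In the first hour without KCl (D against C) 7 of the 40 genes were called for Gcn5 (all genes 21.5%), 8 for H3K18ac (all genes 34.2%), 3 for H4K16ac (all genes 18.2%) and 0 for H3 (all genes 7.52%). Upstream of MRPL27 H3K18ac rose by 0.42 while Gcn5 fell by 0.22, and the ORF of MRPL27 had an H3K18ac rise of 0.29. H3K18ac also rose upstream of MRPL38, in the ORFs of MRPL49 and MRP7 and behind MRPL23, and fell in the ORF of MRPL6 and behind RML2 and MRPL11. Gcn5 fell by 0.49 upstream of MRPL22, which had the lowest 5′ IGR level of Gcn5 among the 40 in sample A, and by 0.38 in the ORF of MRPL44, and it rose by 0.29 upstream of MRPL8. The members' share called for H3K18ac was again below that of the genome, as it was between A and B.

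After recovery (E against A) 10 of the 40 genes were called for Gcn5 (all genes 14%), 2 for H3K18ac (all genes 14.1%), 3 for H4K16ac (all genes 13.7%) and 5 for H3 (all genes 13.6%). The threshold was set on this comparison, so these shares of all genes follow from it, but the members' shares do not. For Gcn5 25% of the 40 genes were called against 14% of all genes, and for the other antibodies the members' share was below that of all genes. Gcn5 of the 40 thus passed the threshold more often than in the genome between samples without KCl. This limits what their Gcn5 calls from A to B show. Gcn5 behind MRPL9 and RML2 was 0.26 above sample A in both, and behind MRPL6 it fell by 0.48, from 0.13 to -0.35. ORF H3 rose by 0.37 in MRPL49 and by 0.26 in MRPL23 and fell by 0.26 in MRPL39. Over all comparisons, 8 of the 40 genes had no call for any antibody or region (20%, all genes 16.5%). They were MRPL4, MRPL7, MRPL15, MRPL28 (YDR462W, mL40), MRPL36 (YBR122C, bL31), MRPL37, MRPL50 (YNR022C, bL9) and IMG2, and they comprise proteins of both kinds, bacterial and mitochondria-specific.

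The 15 genes of mitochondria-specific proteins had higher ORF acetylation in sample A than the 25 of bacterial families, with medians of 0.78 and 0.54 for H3K18ac and of 0.64 and 0.42 for H4K16ac. They were also shorter, with median lengths of 444 and 717 bp, and the part of length in this difference was not tested. Gcn5 behind the stop codon rose in 9 of the 25 genes and in 2 of the 15, where 20.4% of all genes were called up. These counts are small, and the difference between them was not tested. The 5-sample pattern of H3K18ac at the 5′ IGR was most like the median pattern of the 40 genes in MRPL33, MRPL23 and MRPL40, with Pearson's r of 0.99, 0.98 and 0.98 over 5 samples. In 14 of the 40 genes r was negative, down to -0.80 in MRPL39, so the median pattern was not shared by all. Each gene is itself part of this median.

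Other gene lists of translation give the frame for these counts. Of the 33 genes for the small subunit of the mitochondrial ribosome, 6 were called for H3K18ac between A and B in at least 1 region, as were 0 of 6 further genes of the mitochondrial large subunit and 8 of 22 genes for mitochondrial translation factors and tRNA synthetases. Of the 81 genes for the cytosolic large subunit, 68 were. The share of all genes called in this way was 35.6%. The median H3K18ac difference at the 5′ IGR was -0.060 for the 40 genes, -0.092 for the mitochondrial small subunit and -0.28 for the cytosolic large subunit, many of whose genes have near-identical copies that array probes may not tell apart. In ORF H4K16ac of sample A the medians were 0.47, 0.37 and -0.25 for these lists, while ORF H3K18ac was 0.59, 0.56 and 0.58. Gcn5 behind the stop codon rose in 8 of the 33 small-subunit genes, 16 of the 81 cytosolic ones and 11 of the 40, where 20.4% of all genes were called up.

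The arrays of an antibody differed little in overall level as deposited. The study had set them to the same median, so this does not show how they differed before that step. The medians of the 5 arrays as deposited spanned -0.090 to -0.054 for Gcn5, 0.11 to 0.14 for H3, 0.27 to 0.30 for H3K18ac and 0.19 to 0.22 for H4K16ac, and bringing them to 1 median moved no array by more than 0.027. These are microarray values, for which no read depth applies, and the single array value per antibody and sample limits the precision of all differences above.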

How the data were processed

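Genes were described from ChIP-chip of 4 antibodies in 5 samples. The unit of the deposited files is a score: ChIP signal relative to input, logged, in arbitrary units. Per the study's methods the authors used Tiling 1.0R arrays of Affymetrix and that company's Tiling Analysis Software, set the 5 samples to the same median and averaged 38 bins per ORF. The genome build is not given in the sources used here. Of 6685 ORFs, 6 without values, 1 with values over 20 in size and 693 not among the nuclear protein-coding genes of RefSeq were left out. RefSeq (release 64) was used for names, lengths and neighbours. The arrays of each antibody were brought to 1 median over all bins, and bins were averaged per region. The functions were tested on simulated data. Membership goes by gene name alone, but this gene family and the other lists were picked for description with earlier results of these data known. Every member is named. Singled out were the 3 highest and 3 lowest in sample A, the 3 largest called changes each way, and members called for at least 2 antibodies. Alternatives covered normalization, bins, members, reference sample, H3 subtraction and call rule. The work ran in Python 3.11.15 (pandas 2.3.3, numpy 2.4.6, matplotlib 3.10.9, scipy 1.17.1).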

Additional observations from a re-analysis of the deposited data

How the results depend on the processing

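No paired analysis was possible because each antibody and sample has 1 set of values, and leaving out a replicate was not possible for the same reason. Of 119 alternative values, 62 were counted as unmoved. These moved by less than a spread over samples A, C, D and E or kept a count within 1.5 times. The spread was that of the members' median or, for levels in sample A, that of its distance from all genes. Another 54 moved further, and 3 turned sign from a main value larger than its spread. Main values within their spread also changed sign under several alternatives, and such changes are among the 62 and the 54. The ORF change of Gcn5, for example, was 0.0071 in the main setting, -0.023 as deposited and -0.028 with quantile normalization. Leaving out interpolated bins moved none of 13, but only 4 of the members' 1520 bins on each array were interpolated. With the values as deposited, the levels in sample A could not move, since an offset per array cancels in a distance from all genes. The 62 thus include values with little or no room to move. Alternatives on the Gcn5 rise behind the stop codon were chosen after seeing the data. The causes were not tested beyond what each alternative does. Array precision, at 1 value per sample, limits every difference.

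With the values as deposited, the median change from A to B at the 5′ IGR was 0.0090 for Gcn5 and -0.011 for H3, and in the ORF -0.023 for Gcn5, -0.0055 for H3K18ac and -0.0095 for H3. Quantile normalization gave 0.0075 for Gcn5 at the 5′ IGR and, in the ORF, -0.028 for Gcn5, 0.016 for H3K18ac and -0.0019 for H3. The mean over members in place of the median was 0.057 for Gcn5 and -0.022 for H3 at the 5′ IGR and 0.015 for ORF H3K18ac. With sample E in place of A the 5′ IGR changes were 0.067 for Gcn5, -0.026 for H3K18ac and -0.022 for H3, and ORF changes were 0.021 for H3K18ac and -0.014 for H4K16ac, which turned sign. In the 18 members without a divergent upstream neighbour the 5′ IGR changes were 0.071, -0.00086, 0.019 and 0.027 for Gcn5, H3K18ac, H4K16ac and H3, and the ORF changes 0.030, 0.051 and 0.024 for the last 3. The 3 bins nearest the start codon gave -0.013 (a turned sign), -0.092, -0.035 and 0.028. Subtracting H3 gave -0.0027 for Gcn5 (a turned sign) and 0.0034 for H4K16ac at the 5′ IGR and -0.019 for ORF H3K18ac. The central 40% of the ORF gave 0.017 for H3K18ac and -0.0013 for H3.

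Members called in at least 1 region from A to B numbered 12, 3 and 1 for Gcn5, H3K18ac and H4K16ac among those 18 members, counts that are smaller because fewer members enter (all genes 50.6%, 35.6% and 22.5%). With sample E in place of A they were 4 for H3K18ac (all genes 35.9%), 1 for H4K16ac (21.0%) and 9 for H3 (14.4%), and Gcn5 rose behind the stop codon in 17 (23.4%). With the 99th percentile as threshold 10 were called for Gcn5 and 0 for H3K18ac, H4K16ac and H3, where 19.3%, 12.5%, 6.25% and 2.02% of all genes were. Taking every value of B outside the range of the other samples called 38, 37, 30 and 36, where 95.5%, 86.5%, 82.4% and 85.1% of all genes were. Among genes under 1 kb the members' distance from other genes in sample A was -0.065 for Gcn5 and 0.053 for H4K16ac at the 5′ IGR, -0.023, 0.085, 0.20 and -0.016 for Gcn5, H3K18ac, H4K16ac and H3 in the ORF, and 0.020, 0.067 and 0.19 for Gcn5, H3K18ac and H4K16ac behind the stop codon.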
